A study of Mus musculus with 20 samples.

Results

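The comparison described here is that of Tdp-43 knockdown with control in the somatodendritic compartment of cultured mouse motoneurons, read across all protein-coding genes and grouped by what their products do. Its libraries were chosen by the compartment and genotype labels, which gave 6 knockdown and 4 control libraries, 10 of the 20 libraries of the study. Of the 22736 genes that the files annotate as protein-coding, 11972 had a mean of at least 1 FPKM (fragments normalised to exon length and to the mapped fragments of the library) over these 10 libraries and were tested. The remaining protein-coding genes were not tested.

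The cells were primary motoneurons from spinal cord of mid-gestation CD-1 mouse embryos, an outbred strain without a mutation of Tdp-43, enriched with an antibody against the neurotrophin receptor Ngfr after dorsal root ganglia and meninges had been removed. They were grown for 7 days in microfluidic chambers in which axons pass through channels into a compartment of their own. The somatodendritic compartment holds cell bodies, nuclei and dendrites. Control cultures were transduced with an empty lentiviral vector, and knockdown cultures with the same kind of vector carrying a short hairpin RNA (shRNA) against Tardbp, the gene for Tdp-43. A single shRNA was used, so that effects of this one sequence on other transcripts cannot be told apart from effects of the loss of Tdp-43. The control vector carried no shRNA. RNA was extracted as total RNA and amplified before library preparation, without selection for polyadenylated transcripts.

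Tdp-43 is a mostly nuclear RNA-binding protein that recognises UG-rich stretches of RNA. It controls the splicing of many pre-mRNAs, in particular by keeping cryptic exons out of mature transcripts, and it affects the stability and transport of mRNA. It limits its own level by binding its own transcript. In amyotrophic lateral sclerosis, a disease in which motoneurons die, Tdp-43 is lost from the nucleus of affected neurons and collects in the cytoplasm.

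The libraries differed in depth. From the 95% interval that the files give with each FPKM value, an implied number of fragments was derived, and the relative depth over 680 genes was set to 1 in control library 3. It was 0.593, 0.729 and 0.769 in the other control libraries and 0.644 to 0.831 in knockdown libraries 1 to 4, but 0.309 in knockdown library 5 and 0.148 in knockdown library 6. Protein-coding genes above 0 FPKM numbered 12146 to 13155 in the control group, from 12039 to 12683 in knockdown libraries 1 to 4, 10606 in knockdown library 5 and 8778 in knockdown library 6. The median tested gene rested on 3.06 to 6 implied fragments in control libraries and on 0.955 in knockdown library 6, so that single values of low genes carry a large counting error. Implied fragments cover counting error only, since the libraries were amplified by PCR, and they are lower where reads are shared between copies of a gene. Knockdown libraries 3 and 4 deviated together from their group mean (r = 0.22 across 5381 genes, which are not independent replicates), more than any other pair. The labels do not name separate cultures, so that p-values measure the spread between these libraries, which may in part be technical.

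The label of the cells was checked against marker genes. Values are given as scaled FPKM, that is FPKM divided by one factor per library. Of 10 motoneuron markers matched, Chat, which makes acetylcholine, and the transcription factors Mnx1 and Isl2 were listed at 0 in all 10 libraries, and the sum of the list was 14.1 to 21.5 in control and 12.6 to 32.9 in knockdown libraries. Ret, a growth factor receptor of motoneurons and other neurons, was at 4.71 to 10.6 in control and 7.04 to 10.1 in knockdown libraries. The motoneuron transcription factors Isl1 and Lhx4 reached 4.18 and 3.99 in control and 8.09 and 6.94 in knockdown libraries, with 0 as their lowest value in both groups. Ngfr was at 0.727 to 4.39 in control and 0.675 to 16.9 in knockdown libraries. Chat, Mnx1 and Isl2 were thus absent from these values, while other members of the list were above 0 in some or all libraries. The cells are called motoneurons here by their label. Pan-neuronal markers summed to 2034 to 2365 in control and 1712 to 2435 in knockdown libraries, with 0 of 10 listed at 0 throughout. Spinal interneuron markers, which include Gad1, Gad2, Slc32a1 and Slc6a5 of inhibitory neurons, summed to 214 to 246 in control and 187 to 223 in knockdown libraries.

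Markers of other cell types were present too. Neural progenitor markers summed to 361 to 583 in control and 183 to 368 in knockdown libraries, and 2 of 9, Fabp7 and Vim, were lower at an unadjusted p under 0.05. Astrocyte markers summed to 155 to 243 and 147 to 345, oligodendrocyte lineage markers to 48.4 to 93.4 and 24.6 to 101, and microglia and macrophage markers to 16.5 to 74.8 and 8.07 to 46.2, in control and knockdown libraries respectively. At an unadjusted p under 0.05, 2 of 6 tested astrocyte markers, Gfap and Slc1a2, were higher (log2 change 0.92 and 0.89), and Olig1 of the oligodendrocyte lineage, Pmp22 of Schwann cells and C1qa of microglia were lower, 1 in each list. Endothelial markers summed to at most 4.52 and muscle markers to at most 2.40 in any library. Tlx3, a transcription factor of dorsal interneurons, reached 23.4 and 22.0 in knockdown libraries 3 and 4 and was at most 7.40 in the other 8 libraries. Lmx1b, which is expressed in the same interneurons, was at 66.0 and 41.3 in knockdown libraries 3 and 4 and at 10.3 to 23.1 elsewhere. In a bulk sample, fewer cells of a type and less RNA per cell cannot be told apart, and the part that the mix of cells plays in the differences below was not tested.

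**Figure D1:**
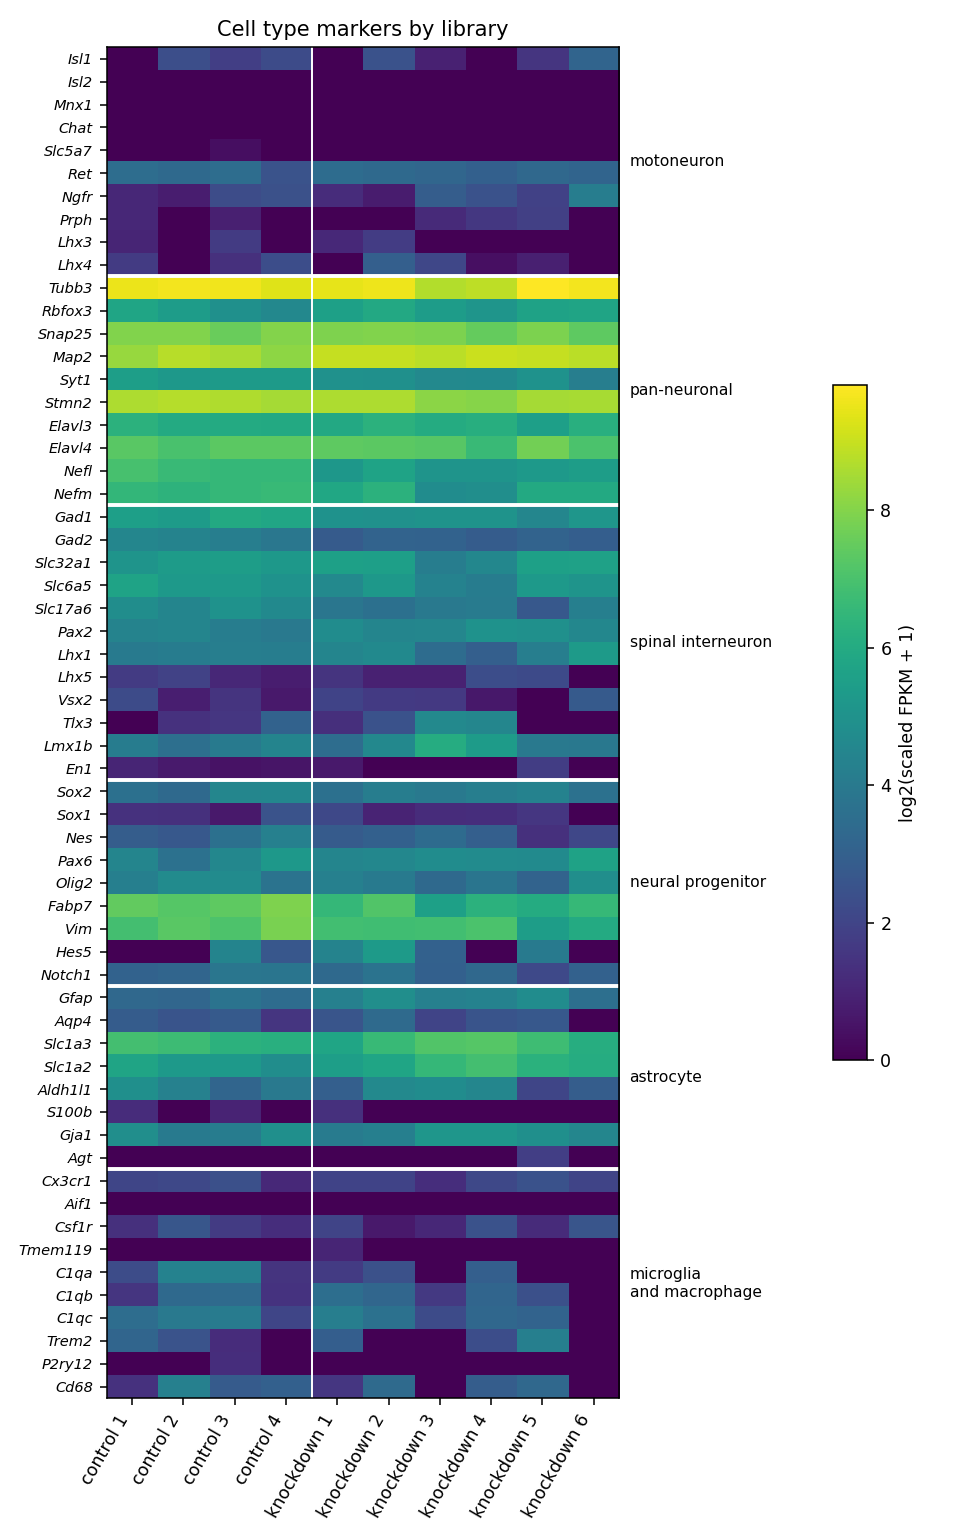
Each row is a marker gene, each column a library, and the colour gives log2(scaled FPKM + 1) from dark (0) to bright. Chat, Mnx1 and Isl2 are dark in all 10 libraries, pan-neuronal markers are bright in all of them, and Tlx3 and Lmx1b stand out in knockdown libraries 3 and 4.

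The targeted gene was examined first. The short hairpin was directed against 21 bases of the Tardbp coding sequence, shown here since the whole comparison rests on it.
shRNA target in Tardbp: gcataatagcaatagacagtt
This site lies in exon 6 at chr4:148618697-148618717 of GRCm38 on the minus strand, and 13 of 15 coding Tardbp transcripts in GENCODE M21 contain it. Tardbp (ENSMUSG00000041459) was at 33.1, 21.0, 31.5 and 30.9 scaled FPKM in control libraries 1 to 4. It was at 0.730, 4.89, 2.36, 6.21 and 7.44 in knockdown libraries 1 to 5 and listed at 0 in knockdown library 6. Every knockdown library was below every control library. As deposited, the mean was 27.3 ± 5.55 FPKM (SD, n = 4) in control and 4.01 ± 3.44 FPKM (SD, n = 6) in knockdown libraries, or 14.7% (two-sided exact permutation test over 210 splits, p = 0.00476, the smallest it can give). In limma the log2 change was -3.06 (SE 0.565, adjusted p = 0.0228). The adjusted p rose to 0.0782 to 0.119 when control library 1, 2, 3 or 4 was left out. A log2 change here is always the difference of log2(scaled FPKM + 1), knockdown minus control, which understates the change of low genes.

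Among all 11972 protein-coding genes, 29 rose (0.242%) and 54 fell (0.451%) at an adjusted p under 0.05 in limma. At an unadjusted p under 0.05, 595 were higher (4.97%) and 959 lower (8.01%). All knockdown libraries lay above all control libraries in 255 genes (2.13%) and below them in 391 (3.27%). The balance of both directions moved with the scaling of the libraries, and so did the median log2 change of all protein-coding genes, which was -0.11 after scaling by the median of ratios and 0.07 with FPKM as deposited. At an unadjusted p under 0.05, 1213 genes were higher and 501 lower with FPKM as deposited, 827 and 780 after quantile normalization, and 799 and 780 after centring each library on the median of protein-coding genes. Protein-coding genes held 38.9% to 40.9% of the summed FPKM in control libraries and 41.2% to 50.5% in knockdown libraries, and the part of this share in the results was not tested. Changes of gene groups are therefore given beside the median of all genes. Without the shallow knockdown libraries 5 and 6, 44 genes rose and 84 fell at an adjusted p under 0.05, and 63 of the 83 genes called with all libraries were among them.

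The 15 largest rises, among genes that did not overlap between groups and are not named in the study's text, had log2 changes from 1.11 to 1.41 and adjusted p from 0.0017 to 0.0475. Separate groups were a condition of this choice, so that their separation below is no further support for a gene. In 6 of the 15 the call held in each of the 10 fits that left out 1 library. These 6 genes encode regulators of transcription and signalling and a sorting adaptor. In a fit over all 20 libraries, which shares 1 estimate of the spread with the axonal ones, 13 of the 15 calls were lost, among them those of Tom1l2, Auts2, Hoxb9 and Usp22 (adjusted p = 0.0558, 0.172, 0.329 and 0.119 in limma). Of the 15 calls, 9 were lost without knockdown libraries 3 and 4, 3 without 5 and 6 and 3 after a correction for transcript length, none of them among the 6 genes whose call held in each fit without 1 library.

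Auts2 (ENSMUSG00000029673, chromosome 5, 131437333 to 132543344) encodes a nuclear and cytoplasmic protein that activates transcription with a Polycomb complex and shapes neuronal processes. It was at 34.5, 40.6, 43.5 and 39.1 scaled FPKM in control libraries and at 121.1, 107.3, 93.4, 71.9, 127.6 and 107.0 in knockdown libraries 1 to 6. The lowest knockdown library was well above the highest control library. The mean rose from 39.4 ± 3.77 to 104.7 ± 20.1 (SD), or 2.66 times, with a log2 change of 1.37 (SE 0.174, adjusted p = 0.0017 in limma). Tom1l2 (ENSMUSG00000000538, chromosome 11, 60226714 to 60352905), an adaptor that binds ubiquitinated cargo and clathrin on endosomes, was at 19.4, 21.6, 21.2 and 13.5 in control and at 58.4, 70.0, 49.6, 37.1, 49.5 and 48.6 in knockdown libraries. The groups were separate, as the rule requires, and the log2 change was 1.41 (SE 0.211, adjusted p = 0.0054).

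Hoxb9 (ENSMUSG00000020875, chromosome 11, 96271457 to 96276595) is a homeobox transcription factor that marks thoracic levels of the spinal cord. Its scaled FPKM was 46.5, 61.5, 59.6 and 75.8 in control and 102.1, 127.4, 131.2, 140.6, 148.5 and 149.0 in knockdown libraries, without overlap. It rose by a log2 change of 1.13 (SE 0.164, adjusted p = 0.0047). Usp22 (ENSMUSG00000042506, chromosome 11, 61151785 to 61175055), the deubiquitinase of the SAGA coactivator complex, which removes ubiquitin from histone H2B, was the most abundant of the 15. Its control libraries were at 135.4, 110.4, 94.0 and 86.3 and its knockdown libraries at 251.2, 228.5, 194.1, 215.5, 263.8 and 223.7. The lowest knockdown library exceeded the highest control library by a wide margin, and the log2 change was 1.11 (SE 0.148, adjusted p = 0.0023).

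Dusp8 (ENSMUSG00000037887, chromosome 7, 142079490 to 142095843) is a phosphatase that inactivates the stress-activated kinases JNK and p38. It was at 47.0, 50.1, 48.7 and 36.2 in control and at 101.7, 104.6, 132.3, 136.2, 112.8 and 82.4 scaled FPKM in knockdown libraries, again without overlap (log2 change 1.27, SE 0.172, adjusted p = 0.0027). Hipk1 (ENSMUSG00000008730, chromosome 3, 103739815 to 103791563), a nuclear kinase that binds homeodomain proteins and p53, was at 14.4 to 20.6 in control and 39.3 to 53.6 in knockdown libraries (log2 change 1.24, SE 0.180, adjusted p = 0.0047).

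In the other 9 rises the call was lost in at least 2 of the fits that left out 1 library, and in each case a control library was among those left out. Zc3h18, a zinc finger protein that links the nuclear exosome to the cap-binding complex, went from 28.1 ± 12.4 to 71.2 ± 19.0 scaled FPKM, but its adjusted p of 0.0475 held in 1 of 10 such fits, the one without control library 1, and reached 0.155 without control library 4. Setd8, a methyltransferase of histone H4, went from 31.5 ± 4.48 to 83.1 ± 25.4 (adjusted p = 0.0201, up to 0.0938 without any of the control libraries or knockdown library 4). Mga, a partner of Max that represses germline and proliferation genes, went from 22.7 ± 5.03 to 57.4 ± 13.3 (adjusted p = 0.0129, up to 0.0553 without control library 1, 3 or 4). Pom121, a membrane-anchored subunit of the nuclear pore, went from 12.4 ± 2.14 to 28.8 ± 4.37 (adjusted p = 0.0194, up to 0.0597 without control library 1, 2 or 3).

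Poldip3, a nuclear protein that takes part in mRNA export and in the coupling of splicing to translation, has an exon whose splicing is known to depend on Tdp-43. Its total level went from 26.9 ± 6.36 to 61.0 ± 16.6 scaled FPKM (adjusted p = 0.0326). This gene-level value does not separate its splice forms, and the call held in 3 of 10 fits, with an adjusted p of up to 0.106. It was lost without any of the control libraries or knockdown library 1, 2 or 3. Dlgap3, a scaffold of the postsynaptic density, went from 12.9 ± 1.89 to 32.2 ± 6.50 (adjusted p = 0.0156, 0.0555 or less without control library 3 or 4). The uncharacterised gene 2510039O18Rik went from 6.21 ± 0.863 to 16.9 ± 3.08, and Ppp1r18 and Zswim5 from 5.84 ± 1.65 to 15.5 ± 2.15 and from 5.11 ± 0.773 to 13.1 ± 2.29. Their adjusted p was 0.0211, 0.0344 and 0.0468. The first call was lost without control library 2, 3 or 4 (up to 0.0650), that of Ppp1r18 without any library but knockdown libraries 1 and 6 (up to 0.103), and that of Zswim5 without any but knockdown library 6 (up to 0.119).

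**Figure D2:**
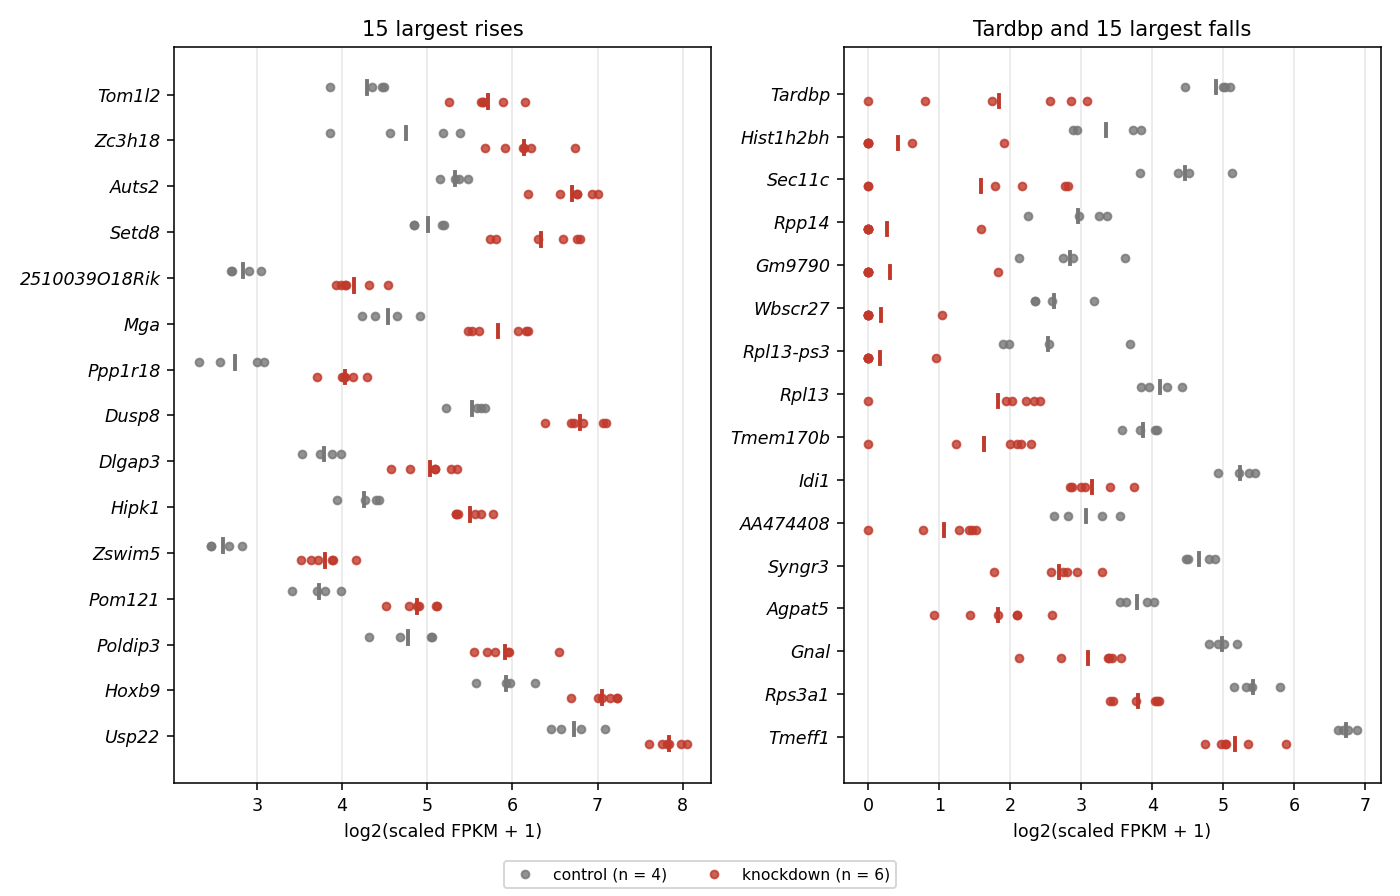
Each point is 1 library and each short bar the group mean, on a scale of log2(scaled FPKM + 1), with 4 control libraries in grey and 6 knockdown libraries in red. The 15 largest rises (left) and Tardbp with the 15 largest falls (right) show separate groups by the rule that chose them, and Hist1h2bh, Rpp14, Gm9790, Wbscr27 and Rpl13-ps3 have 4 or 5 of 6 knockdown libraries at 0.

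The 15 largest falls, also chosen among genes with separate groups, had log2 changes from -2.93 to -1.57. In 5 of them, Idi1, Rps3a1, Tmeff1, Syngr3 and Wbscr27, the call held in each of the 10 fits without 1 library. In the fit over all 20 libraries 8 of the 15 calls were lost, among them those of Rps3a1, Tmeff1 and Syngr3 (adjusted p = 0.0522, 0.0700 and 0.256 in limma). Without knockdown libraries 3 and 4, 6 of the 15 were lost, without 5 and 6 it was 3, and after the length correction 4 of the 13 with a value, none of them among the 5 genes whose call held in each fit without 1 library. Idi1, Rps3a1, Tmeff1, Syngr3 and Wbscr27 encode an enzyme of sterol synthesis, a ribosomal protein, a transmembrane protein, a synaptic vesicle protein and a methyltransferase-like protein.

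Idi1 (ENSMUSG00000058258, chromosome 13, 8885501 to 8892451) converts isopentenyl diphosphate to its isomer, a step on the way to cholesterol. It was at 40.2, 36.4, 29.3 and 42.8 scaled FPKM in control and at 12.4, 7.30, 6.30, 6.14, 7.0 and 9.60 in knockdown libraries. The highest knockdown library was below every control library. The mean fell to 21.9% of control, with a log2 change of -2.09 (SE 0.250, adjusted p = 0.0011). Tmeff1 (ENSMUSG00000028347, chromosome 4, 48585174 to 48663131), a transmembrane protein with follistatin-like domains that is found in the nervous system, was the most abundant of the 15. Its control libraries were at 107.3, 102.0, 97.2 and 116.9 and its knockdown libraries at 39.7, 31.8, 30.3, 31.6, 58.4 and 25.9. It fell by 1.57 on the log2 scale (SE 0.210, adjusted p = 0.0025), and knockdown library 5 was the highest of its group.

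Syngr3 (ENSMUSG00000007021, chromosome 17, 24685092 to 24689955) is a membrane protein of synaptic vesicles. It was at 28.4, 26.8, 21.8 and 21.2 in control and at 5.97, 8.77, 5.71, 6.68, 2.40 and 4.93 in knockdown libraries, without overlap (log2 change -1.98, SE 0.308, adjusted p = 0.0079). Wbscr27 (ENSMUSG00000040557), a methyltransferase-like protein, was at 4.07, 5.0, 8.04 and 4.08 in control libraries. It was at 1.05 in knockdown library 4 and listed at 0 in the other 5 knockdown libraries (adjusted p = 0.0143). At this level a library holds few implied fragments, a median of 0.0205 over the 10 libraries, so that the size of the fall is uncertain.

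Rps3a1 (ENSMUSG00000028081, chromosome 3, 86137940 to 86142702), a protein of the small ribosomal subunit, was at 38.8, 41.5, 34.4 and 54.6 in control and at 12.6, 15.5, 9.57, 15.7, 16.1 and 9.91 scaled FPKM in knockdown libraries (log2 change -1.61, SE 0.230, adjusted p = 0.0041). The groups were far apart. Rpl13 of the large subunit fell from 16.4 ± 3.17 to 2.99 ± 1.57 (log2 change -2.28, adjusted p = 0.0399). That call held in 1 of 10 fits, the one without knockdown library 6, in which Rpl13 is listed at 0, and the adjusted p was up to 0.158 in the others. The processed copies Rpl13-ps3 (adjusted p = 0.0342) and Gm9790 (adjusted p = 0.0341) were listed at 0 in 5 of 6 knockdown libraries each, and their calls held in 3 and 2 of 10 fits (up to 0.0863 and 0.108). The files annotate them as protein-coding, but reads of such copies cannot be told from those of ribosomal protein genes with near-identical sequence, so that their own values, and those of Rps3a1 and Rps3a2, are uncertain.

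The other falls covered several functions. Gnal, the G protein alpha subunit that couples receptors to adenylyl cyclase, was at 26.9 to 35.5 in control and 3.36 to 10.8 in knockdown libraries (log2 change -1.88, SE 0.306, adjusted p = 0.011), and the call was lost without control library 2 or 3 (adjusted p up to 0.0568). Agpat5, an acyltransferase of phospholipid synthesis, went from 12.9 ± 2.19 to 2.78 ± 1.43, with an adjusted p of 0.0272 that was lost without any of the control libraries or knockdown library 4 or 5 (up to 0.119). Tmem170b, a small membrane protein, went from 13.8 ± 2.28 to 2.49 ± 1.5, and Sec11c, a catalytic subunit of the signal peptidase, from 22.1 ± 8.67 to 2.96 ± 2.67. Their adjusted p of 0.0411 and 0.0485 held in 1 of 10 such fits each, those without knockdown library 5 and without knockdown library 1, and was up to 0.149 and 0.189 in the others. Hist1h2bh, an H2B histone, was listed at 0 in 4 of 6 knockdown libraries against 6.38 to 13.3 in control libraries, and Rpp14 in 5 of 6 against 3.74 to 9.31. Their adjusted p of 0.0129 and 0.0158 reached 0.0581 without control library 1 or 3, and 0.0585 without control library 1, 3 or 4. Histone transcripts share sequence, so that the value of a single histone gene is uncertain. AA474408, which is uncharacterised, went from 7.68 ± 2.56 to 1.23 ± 0.736 (adjusted p = 0.0485, up to 0.156 without any library but knockdown library 6).

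The following called genes, outside both sets of 15, were chosen after their values were seen. Their calls held in each of the 10 fits without 1 library, but in the fit over all 20 libraries only that of Serinc1 held (adjusted p = 0.0011 in limma, and 0.0611 to 0.445 for the others). Serinc1, a membrane protein described as bringing serine into phosphatidylserine and sphingolipids, had the smallest adjusted p of all protein-coding genes, 0.00023. It was at 278.5, 235.0, 248.4 and 205.2 scaled FPKM in control and at 71.1, 92.0, 102.0, 93.3, 79.8 and 77.3 in knockdown libraries. All knockdown libraries lay far below all control libraries. Selt, a selenoprotein of the endoplasmic reticulum, fell from 83.9 ± 10.3 to 29.5 ± 6.83 (log2 change -1.49, adjusted p = 0.0019). Reep1, which shapes the tubular endoplasmic reticulum and is mutated in a hereditary spastic paraplegia, fell from 110.1 ± 6.93 to 57.6 ± 9.18 (log2 change -0.94, adjusted p = 0.0111). Epb4.1l3, which ties membrane proteins to spectrin and actin, fell from 50.8 ± 4.62 to 20.7 ± 3.11 (log2 change -1.26, adjusted p = 0.0040). Trim2, a ubiquitin ligase that binds neurofilament light chain, rose from 62.9 ± 2.81 to 138.5 ± 32.3 (log2 change 1.10, adjusted p = 0.0105). Ube4b, a ubiquitin chain elongation factor, rose from 60.8 ± 5.48 to 125.4 ± 20.5 (log2 change 1.02, adjusted p = 0.0049), and Vat1, a vesicle membrane protein, from 35.3 ± 3.24 to 65.9 ± 5.30 (log2 change 0.88, adjusted p = 0.0109).

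Functional classes were described with 72 lists of genes. Of the 29 rises 10, and of the 54 falls 20, belonged to at least 1 list. For each list the members higher and lower at an unadjusted p under 0.05 are counted, to be read against the 4.97% and 8.01% of all protein-coding genes, and the median log2 change is given beside the -0.11 of all of them. The members of a list are not replicates, and no test was run on a list. The level of a list is the mean log2(scaled FPKM + 1) of its tested members in a library. Levels without overlap between groups also occurred in lists with a median near that of all genes. Examples are DnaJ co-chaperones (median -0.13) and actin and growth cone proteins (median -0.04), both lower in knockdown libraries. Separate levels alone therefore do not set a list apart.

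**Figure D3:**
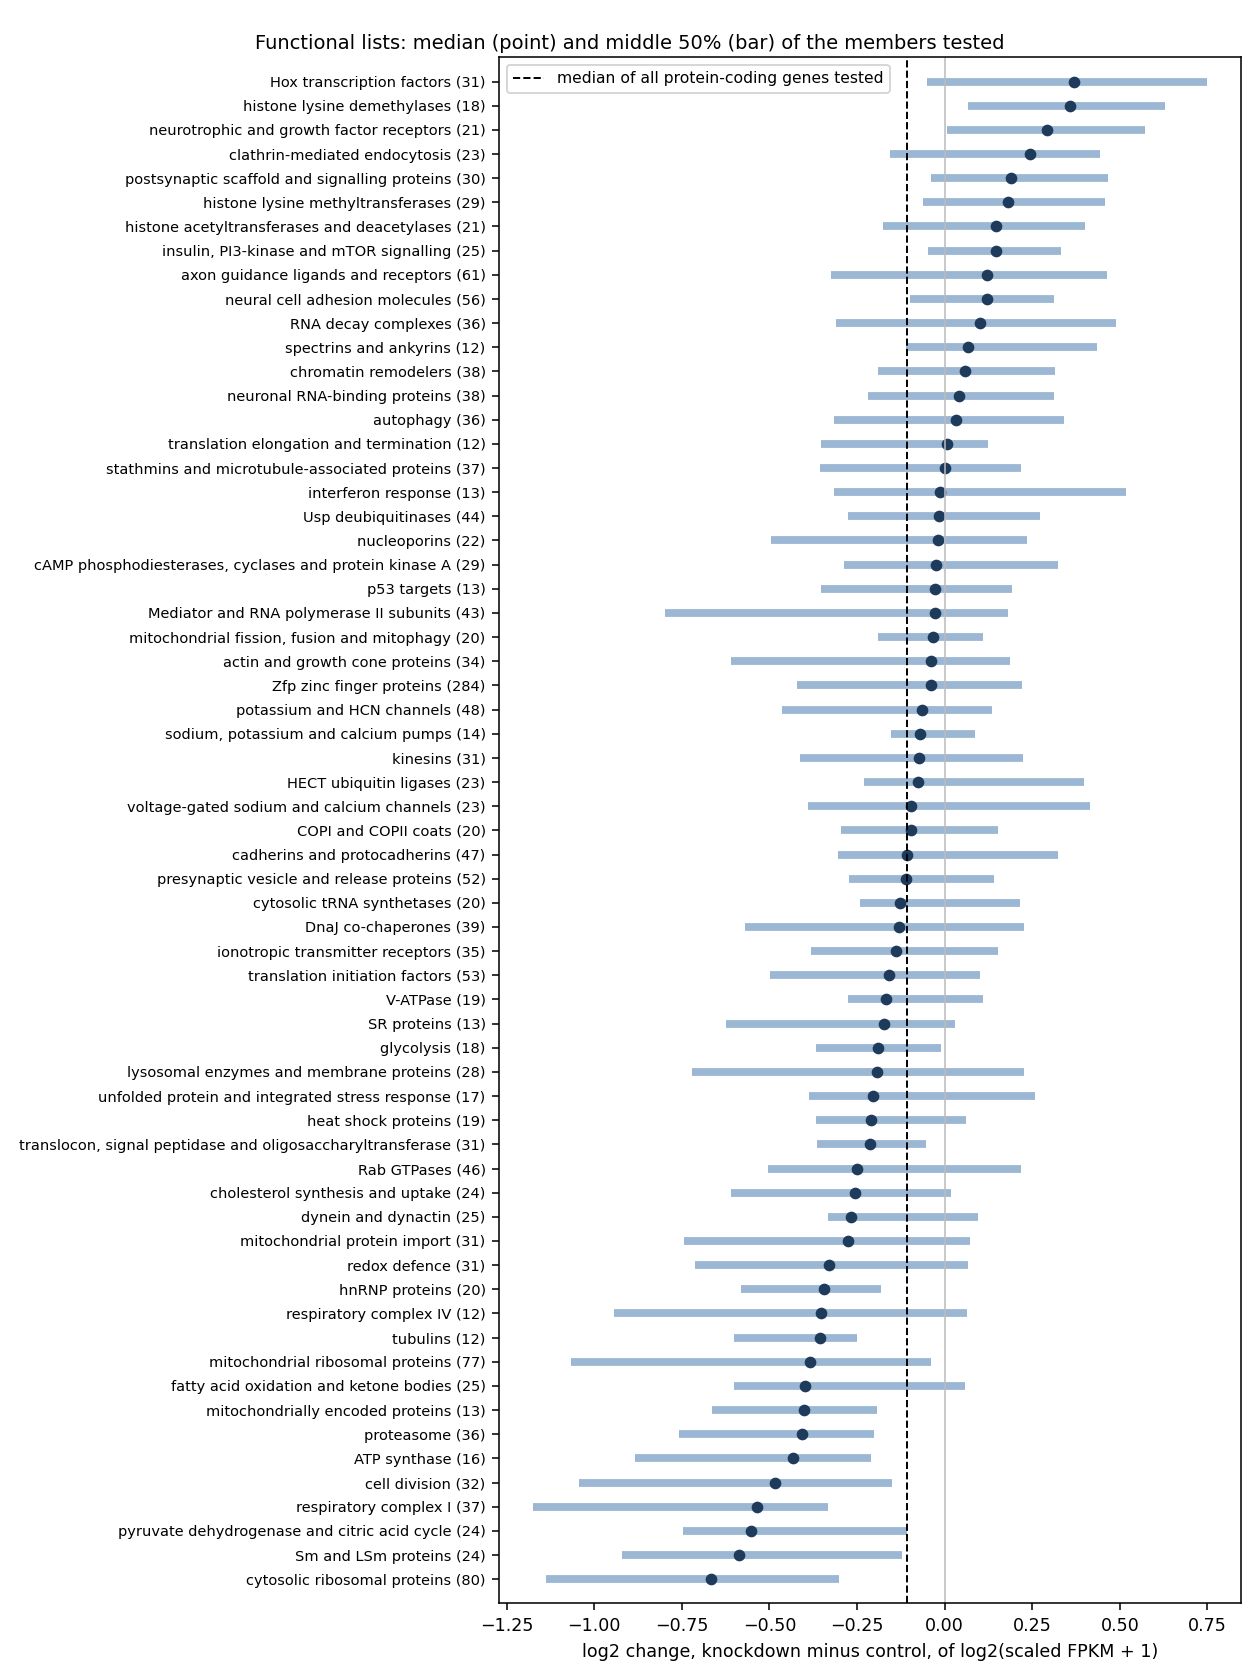
Each row is one of the functional lists with at least 12 tested members, with their number in brackets. The point is the median and the bar the middle 50% of the members' log2 changes, knockdown minus control, and the dashed line is the median of all protein-coding genes, -0.11. Ribosomal, Sm and LSm, citric acid cycle and respiratory complex I lists lie lowest with all libraries, and Hox factors and histone lysine demethylases lie highest.

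Of 80 cytosolic ribosomal proteins tested, 39 were lower and 2 higher at an unadjusted p under 0.05, and 6 fell at an adjusted p under 0.05. The median log2 change was -0.67 and 73 of 80 were below 0. The mean log2 level of the list was 5.15 to 5.31 in control and 4.23 to 4.64 in knockdown libraries, so that the groups did not overlap. Rps25, of the small subunit, was at 53.2, 36.7, 54.8 and 45.7 in control and at 15.5, 22.1, 9.85, 18.0, 10.4 and 21.3 in knockdown libraries (log2 change -1.54, adjusted p = 0.0147). Rpl8 fell from 143.0 ± 18.8 to 79.6 ± 11.7 (adjusted p = 0.0201) and Rpl11 from 33.7 ± 4.41 to 14.6 ± 2.67 (adjusted p = 0.0218). These calls were lost for Rps25 without control library 1, 3 or 4, for Rpl8 without 1 or 4 and for Rpl11 without any of the 4, with an adjusted p of at most 0.0863. In the fit over all 20 libraries it was 0.113 for Rps25, 0.282 for Rpl8 and 0.0359 for Rpl11. Without knockdown libraries 5 and 6, 38 of the 80 were lower and 2 higher.

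Other parts of the translation machinery had smaller shares of lower members. Of 53 initiation factors 4 were lower and 2 higher, with a median of -0.16, and Eif4g2, which supports cap-independent initiation, was at 703.5 ± 50.8 in control and 941.2 ± 49.0 in knockdown libraries (log2 change 0.42, adjusted p = 0.0523). Elongation and termination factors had 3 of 12 lower and a median of 0.01, but 1 lower without knockdown libraries 5 and 6 and 1 after a correction for transcript length described below. Among them was Eef1b2 (74.3 ± 28.9 against 29.1 ± 16, adjusted p = 0.149). Of 20 cytosolic tRNA synthetases none was called in either direction at an unadjusted p under 0.05 in limma, with a median of -0.13. Lars2, the mitochondrial leucyl-tRNA synthetase, which is in none of these lists and is named after its value was seen, fell from 2974 ± 280 to 2019 ± 180 (log2 change -0.56, adjusted p = 0.0206, up to 0.114 without control library 1, 2 or 3 or knockdown library 4 or 5, and 0.361 with all 20 libraries). This level was far above that of the pan-neuronal marker Tubb3, at 658 to 813 in control libraries. Whether reads of other RNA add to the Lars2 value was not tested, so that a fall of its mRNA is uncertain.

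Respiratory complex I, which takes electrons from NADH, had 12 of 37 members lower and 1 higher, with a median of -0.54, 35 of 37 below 0 and 0 at an adjusted p under 0.05 in limma. After the length correction 5 were lower. Its mean log2 level was 5.14 to 5.27 in control and 3.84 to 4.68 in knockdown libraries. Ndufa13 was at 20.5 ± 4.20 in control and 10.4 ± 2.81 in knockdown libraries (adjusted p = 0.114), and Ndufa6 at 54.6 ± 3.96 and 37.6 ± 6.32 (adjusted p = 0.157). Complex III had 5 of 9 members lower (median -0.54), and 2 lower and 1 higher after that correction. Of its members, Uqcrq, which the study's text also names, fell from 172.8 ± 19.6 to 49.6 ± 17.6 (log2 change -1.84, adjusted p = 0.00165), a call held in each fit without 1 library and with all 20 libraries (adjusted p = 0.0111 in limma).

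Complex IV, cytochrome c oxidase, had 5 of 12 lower and 0 higher (median -0.35), and 3 lower and 3 higher after the length correction. Cox4i1, the subunit by which ATP regulates the enzyme, was at 166.8, 142.9, 234.5 and 124.3 in control and at 53.6, 59.3, 87.3, 42.8, 57.1 and 84.1 in knockdown libraries. These groups did not overlap, and Cox4i1 fell by 1.37 on the log2 scale (adjusted p = 0.0129, 0.0642 or less without control library 1 or 3, 0.0097 with all 20 libraries). ATP synthase had 6 of 16 lower (median -0.43), with Atp5g3 of the membrane ring falling from 121.0 ± 18.4 to 64.1 ± 10.7 (adjusted p = 0.0206, up to 0.0837 without control library 1 or 3, 0.0572 with all 20 libraries). Of complex II 1 of 4 fell, Sdhd (37.9 ± 6.44 to 17.3 ± 2.87, adjusted p = 0.0229, up to 0.0900 without control library 1, 2 or 4, 0.258 with all 20 libraries), while Sdha, Sdhb and Sdhc had unadjusted p of 0.301 to 0.691.

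Of the 13 proteins encoded by mitochondrial DNA, 13 were below 0 (median -0.40, or -0.21 without knockdown libraries 3 and 4), 6 were lower at an unadjusted p under 0.05 (1 after the length correction) and 2 fell at an adjusted p under 0.05. These were mt-Atp6, from 1836 ± 80.1 to 1114 ± 209 (log2 change -0.74, adjusted p = 0.0201), and mt-Co2, from 2224 ± 221 to 1416 ± 260 (log2 change -0.66, adjusted p = 0.042). The call of mt-Atp6 was lost without any of the control libraries or knockdown library 5 (up to 0.0929), and that of mt-Co2 without any library but knockdown libraries 1 and 2 (up to 0.165). With all 20 libraries in 1 fit the adjusted p was 0.849 for mt-Atp6 and 0.851 for mt-Co2 in limma. The list level was 10.0 to 10.3 in control and 9.05 to 10.1 in knockdown libraries, which overlap. Mitochondrial ribosomal proteins had 7 of 77 lower and 0 higher (median -0.39, or -0.21 without knockdown libraries 5 and 6), a share near the 8.01% of all genes.

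Pyruvate dehydrogenase and the citric acid cycle had 7 of 24 lower and 0 higher, with a median of -0.55, and 4 lower after the length correction. Mpc1 and Mpc2, the carriers that bring pyruvate into mitochondria, were at 33.2 ± 3.47 and 55.8 ± 21.8 in control and at 17.9 ± 5.37 and 26.9 ± 6.61 in knockdown libraries (adjusted p = 0.102 for both). Citrate synthase, Cs, was at 80.4 ± 7.25 and 59.9 ± 6.21 (adjusted p = 0.189). Mitochondrial protein import had 5 of 31 lower, and fatty acid oxidation and ketone body enzymes 4 of 25 (median -0.40, or -0.08 without knockdown libraries 5 and 6). The proteins of mitochondrial fission, fusion and mitophagy had 1 of 20 lower and 0 higher (median -0.03), which is Gdap1 (16.9 ± 2.90 against 8.26 ± 2.48, adjusted p = 0.117).

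Outside mitochondria, glycolysis had 4 of 18 lower and 1 higher (median -0.19). Aldoa was at 258.8 ± 29.1 and 180.7 ± 24.8 and Pgk1 at 14 ± 3.39 and 6.65 ± 2.13 in control and knockdown libraries (adjusted p = 0.094 and 0.154). Redox defence had 9 of 31 lower and 2 higher (median -0.33), with the peroxiredoxins Prdx5 at 87.4 ± 17.5 and 44.5 ± 13.3 and Prdx2 at 116.8 ± 25.8 and 63.0 ± 22.5 (adjusted p = 0.0829 and 0.117). Cholesterol synthesis and uptake had 5 of 24 lower and 1 higher (median -0.26). Its list level was 4.97 to 5.09 in control and 4.44 to 4.79 in knockdown libraries, without overlap. Fdps, which acts just after Idi1 in the pathway, was at 44.6 ± 6.94 and 16.8 ± 9.25 (adjusted p = 0.0682), while Dhcr7, of the last steps, was at 19.2 ± 3.51 and 48.3 ± 28.1 (adjusted p = 0.231).

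**Figure D4:**
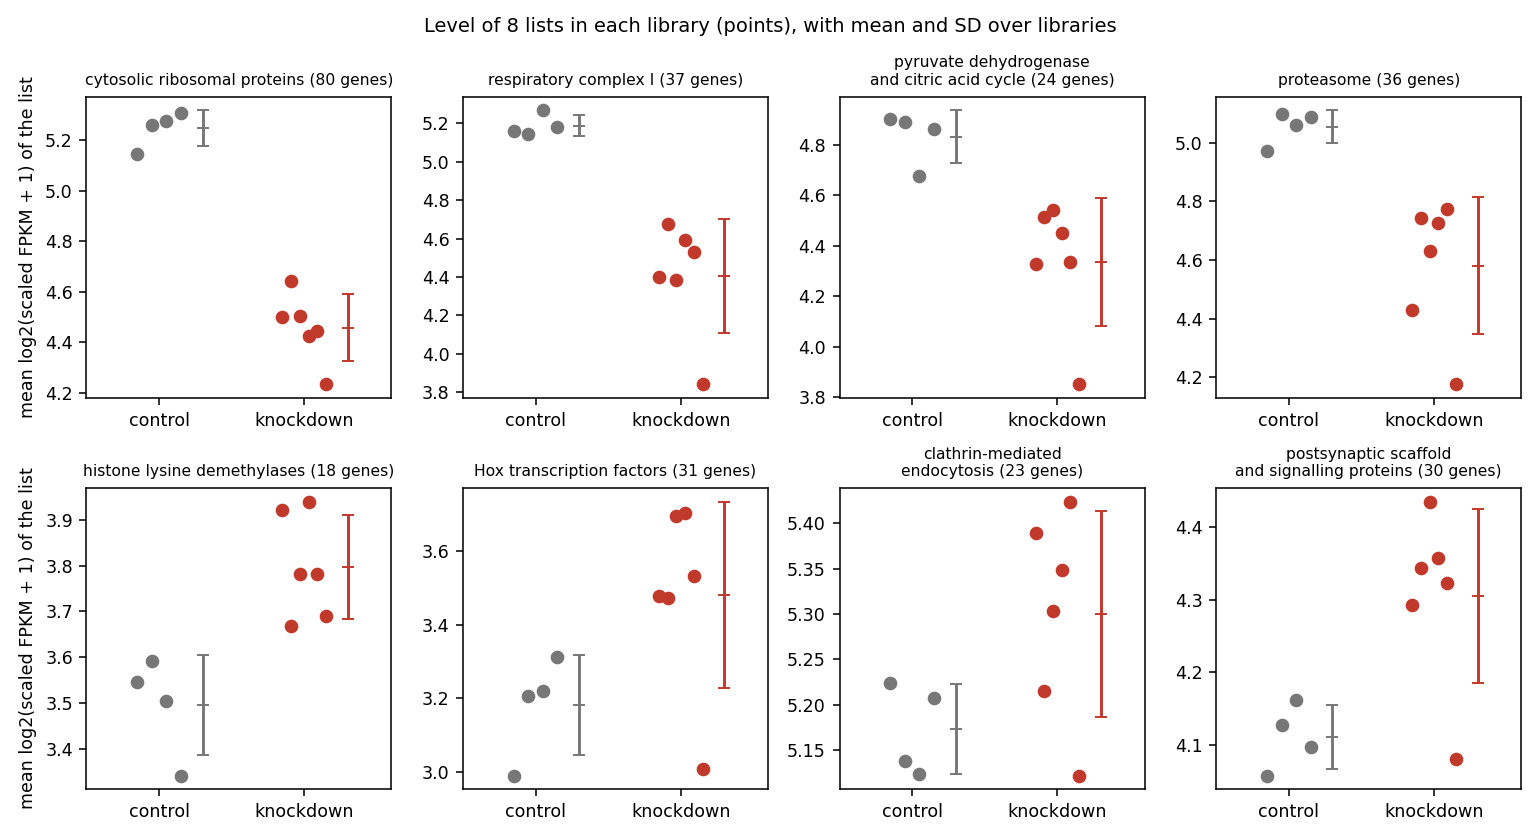
Each panel gives a list's level, the mean log2(scaled FPKM + 1) of its tested members, in each library as a point, with the group mean and SD as a bar to the right. Axes do not start at 0. The upper 4 lists and the histone lysine demethylases do not overlap between groups, and knockdown library 6 is the lowest of all libraries in the 4 upper panels.

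The proteasome had 8 of 36 members lower and 0 higher (median -0.41), and its list level was 4.97 to 5.10 in control and 4.18 to 4.78 in knockdown libraries. Psma6 and Psmb4 of the catalytic core were at 71.6 ± 8.19 and 58.2 ± 6.82 in control and at 38.1 ± 9.45 and 29.9 ± 8.13 in knockdown libraries (adjusted p = 0.0648 and 0.0767). The cytosolic chaperonin, which folds tubulin and actin, had 4 of 8 lower (median -0.51), with Cct8 at 81.3 ± 19.1 and 42.9 ± 9.55 (adjusted p = 0.0793). Heat shock proteins had 3 of 19 lower and 1 higher, DnaJ co-chaperones 2 of 39 and 1, Usp deubiquitinases 2 of 44 and 3, and autophagy proteins 1 of 36 and 4. Ulk1, the kinase that starts autophagy, was at 5.03 ± 0.995 and 11 ± 3.09 (adjusted p = 0.147). Of 28 lysosomal proteins 2 were higher and 2 lower, and Grn, progranulin, whose loss causes a dementia with Tdp-43 aggregates, was at 59.3 ± 24.9 and 103.6 ± 22.3 (adjusted p = 0.143). The V-ATPase, which acidifies lysosomes and synaptic vesicles, had 4 of 19 lower (median -0.17).

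The hnRNP proteins, the family to which Tdp-43 is related, had 6 of 20 lower and 1 higher (median -0.34), and 3 lower and 2 higher without knockdown libraries 5 and 6. Hnrnpa1, a splicing repressor that binds Tdp-43, was at 31.2, 36.1, 34.7 and 48.4 in control and at 13.8, 13.1, 15.7, 16, 19.9 and 12.1 in knockdown libraries, without overlap. It fell by 1.26 on the log2 scale (SE 0.210, adjusted p = 0.0129), and the call was lost without control library 4 (adjusted p = 0.0525) and with all 20 libraries (0.0752). Hnrnpl was at 168.5 ± 18.4 and 240.7 ± 34.0 (log2 change 0.51, adjusted p = 0.105). Of the SR proteins 3 of 13 were lower, and Srsf3 fell from 39.4 ± 7.88 to 18.1 ± 3.85 (adjusted p = 0.0409, up to 0.143 without any library but knockdown library 6, 0.207 with all 20 libraries). Transcripts of both families are regulated by exons that send them to decay, which FPKM of the whole gene does not resolve.

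The Sm and LSm proteins, the rings around spliceosomal RNAs, had 5 of 24 lower and 1 higher (median -0.59, or -0.31 without knockdown libraries 5 and 6), and their level was 3.84 to 4.1 in control and 2.78 to 3.68 in knockdown libraries. Snrpg was at 12.2 ± 4.07 and 1.49 ± 2.61 (adjusted p = 0.0509) and Snrpd3 at 54.9 ± 17.3 and 23.4 ± 11.6 (adjusted p = 0.147). The exosome, CCR4-NOT, decapping and nonsense-mediated decay complexes, which degrade RNA, had 6 of 36 higher and 1 lower (median 0.10). Cnot1 and Cnot3, the scaffold and a regulatory subunit of the CCR4-NOT deadenylase, were at 17.5 ± 1.38 and 28.9 ± 6.23 in control and at 27.5 ± 2.53 and 52.7 ± 15.4 in knockdown libraries (adjusted p = 0.121 and 0.137). Neuronal RNA-binding proteins had 3 of 38 lower and 2 higher, with Nova1 at 25.9 ± 5.97 and 12.9 ± 4.92 (adjusted p = 0.143). Nucleoporins, which form the pore that imports Tdp-43, had 3 of 22 higher and 0 lower at an unadjusted p, but 2 higher and 2 lower without knockdown libraries 5 and 6. Pom121 is not in this list. Nup62 was at 17.6 ± 7.68 and 43.4 ± 24.5 (adjusted p = 0.136).

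Histone lysine demethylases had 4 of 18 higher and 0 lower at an unadjusted p under 0.05, a median of 0.36 and 0 called at an adjusted p in limma. The level of the list was 3.34 to 3.59 in control and 3.67 to 3.94 in knockdown libraries, without overlap. Without knockdown libraries 5 and 6, 8 of 18 were higher. Kdm2a, a demethylase of histone H3, was at 14 ± 5.79 and 29.2 ± 4.75 (adjusted p = 0.0682), and Kdm4a and Kdm5b were at 20.1 ± 3.22 and 15.6 ± 2.39 in control and 33.3 ± 6.12 and 25.4 ± 3.38 in knockdown libraries (adjusted p = 0.135 and 0.136). Histone lysine methyltransferases had 4 of 29 higher and 1 lower (median 0.18). Apart from Setd8, which rose, these were Kmt2e, Ehmt1 and Kmt2b, with control means of 32.9, 54.1 and 7.90 and knockdown means of 51.6, 96.5 and 20.5 (adjusted p = 0.118, 0.142 and 0.285).

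Chromatin remodelers had 7 of 38 higher and 2 lower (median 0.06), with Ep400 at 35.6 ± 9.67 and 72.3 ± 18.1 (adjusted p = 0.0781). Of the Mediator and RNA polymerase II subunits 3 of 43 were higher and 3 lower. Polr2a, the largest subunit of the polymerase, was at 17.5 ± 3.27 and 33.6 ± 9.52 (adjusted p = 0.139), and Polr2m fell from 69.6 ± 9.48 to 39.0 ± 6.45 (adjusted p = 0.0409, up to 0.119 without any library but knockdown libraries 2 and 6, 0.195 with all 20 libraries). The 284 Zfp zinc finger genes, the largest list, had 11 higher and 11 lower, both shares below those of all genes.

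Hox genes, which set the position of neurons along the spinal cord, had 7 of 31 higher and 0 lower (median 0.37), and Hoxb9 and Hoxb8 rose. Hoxb8 was at 76.3, 78.6, 84.9 and 83.5 in control and at 150.3, 139.7, 184.4, 203.3, 128.2 and 109.9 scaled FPKM in knockdown libraries. These groups were separate, with a log2 change of 0.88 (SE 0.172, adjusted p = 0.0324), though the call held only without knockdown library 5 or 6, and the adjusted p was up to 0.106 without any other library and 0.507 with all 20 libraries. Hoxd3 and Hoxd9 were at 15.6 ± 6.04 and 13.1 ± 5.22 in control and at 36.4 ± 18.3 and 26.6 ± 10.5 in knockdown libraries (adjusted p = 0.182 and 0.191). The list level was 2.99 to 3.31 in control and 3.01 to 3.70 in knockdown libraries, and knockdown library 6 alone overlapped with control. Without knockdown libraries 5 and 6, 10 of 31 were higher. Whether the cultures started from the same stretch of spinal cord was not tested.

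Clathrin-mediated endocytosis had 7 of 23 higher and 2 lower (median 0.24). Dnm3, a neuronal dynamin, which cuts vesicles from the membrane, rose from 38.1 ± 2.57 to 80.7 ± 18.2 (log2 change 1.03, SE 0.190, adjusted p = 0.0227, up to 0.0836 without any of the control libraries or knockdown library 4, 0.433 with all 20 libraries). Snap91, the neuronal clathrin assembly protein AP180, was at 71.9 ± 1.03 and 45.7 ± 12.8 (adjusted p = 0.134), and Eps15 at 31.5 ± 3.80 and 45.0 ± 7.38 (adjusted p = 0.228). Without knockdown libraries 5 and 6, 5 of 23 were higher and 2 lower. Rab GTPases, which direct vesicles, had 5 of 46 lower and 2 higher (median -0.25), and Rab9b fell from 11.3 ± 0.951 to 3.22 ± 0.963 (log2 change -1.57, adjusted p = 0.0311, up to 0.108 without any of the control libraries or knockdown library 2 or 4, 0.210 with all 20 libraries). The coats COPI and COPII had 2 of 20 lower, and the translocon, signal peptidase and oligosaccharyltransferase 3 of 31 lower and 1 higher.

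The neuronal intermediate filaments split. Nefl fell from 101.9 ± 14.9 to 39.1 ± 6.79 (log2 change -1.37, adjusted p = 0.0014, call held in each fit without 1 library, 0.0808 with all 20 libraries), and Nefm and Nefh were at 89.7 ± 7.47 and 6.26 ± 1.38 in control and at 52.2 ± 20.8 and 1.58 ± 1.41 in knockdown libraries (adjusted p = 0.190 and 0.143). Ina, alpha-internexin, was at 172.1 ± 4.75 in control and 233.7 ± 43.2 in knockdown libraries, without overlap (log2 change 0.42, adjusted p = 0.219). Tubulins had 5 of 12 lower and 1 higher (median -0.36, or -0.23 without knockdown libraries 3 and 4), and 1 lower and 1 higher after the length correction. The one higher member was Tubb4a at 72.3 ± 4.45 and 108.8 ± 20.4 (adjusted p = 0.105), against Tuba4a at 23.2 ± 1.59 and 10.0 ± 4.70 (adjusted p = 0.102).

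Stathmins and microtubule-associated proteins had 7 of 37 higher and 3 lower (median 0.00). Crmp1, which binds tubulin in growth cones downstream of semaphorins, rose from 603.2 ± 44.6 to 846.8 ± 33.7 (log2 change 0.49, SE 0.091, adjusted p = 0.0228, up to 0.0908 without any of the control libraries, 0.784 with all 20 libraries). Mapt, tau, was at 243.3 ± 31.6 and 403.1 ± 97.6 and Dcx, doublecortin, at 59.6 ± 6.75 and 92.7 ± 11.5 (adjusted p = 0.0817 and 0.0682). Stmn3, a relative of stathmin-2 that destabilises microtubules, was at 72.7 ± 16.9 and 37.8 ± 6.55 (adjusted p = 0.0502). Actin and growth cone proteins had 6 of 34 higher and 3 lower (median -0.04), and 18 of 34 were below 0. Their list level was 5.599 to 5.715 in control and 5.366 to 5.564 in knockdown libraries. Tmsb10, which binds free actin, rose from 1709 ± 193 to 2492 ± 285 (log2 change 0.54, adjusted p = 0.0457, call held without knockdown library 3, up to 0.155 without any other, 0.418 with all 20 libraries), while its relative Tmsb4x was at 360.2 ± 39.5 and 226.2 ± 67.2 (adjusted p = 0.166). Kinesins had 2 of 31 higher and 1 lower, with Kif21b at 65.0 ± 7.82 and 117.6 ± 39.0 and Kif1a at 157.2 ± 14.3 and 117.5 ± 9.55 (adjusted p = 0.104 and 0.134). Dynein and dynactin had 3 of 25 lower and 1 higher, with Pafah1b1 (Lis1) at 38.8 ± 1.22 and 23.3 ± 3.84 (adjusted p = 0.0793).

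Postsynaptic scaffold and signalling proteins had 6 of 30 higher and 1 lower (median 0.19). Apart from Dlgap3, Shank2 was at 11.4 ± 0.546 and 19.0 ± 1.79 and Dlg4, PSD-95, at 166.9 ± 11.8 and 212.0 ± 20.8 (adjusted p = 0.121 and 0.205). Presynaptic proteins had 3 of 52 higher and 5 lower (median -0.11), shares near those of all genes. Among them Vamp2 of the vesicle was at 179.6 ± 17.4 and 236.3 ± 28.1 and Syt1, the calcium sensor of release, at 40.1 ± 3.48 and 25.9 ± 5.13 (adjusted p = 0.168 and 0.154). Neural cell adhesion molecules had 7 of 56 higher and 1 lower (median 0.12), with Lphn2 at 46.6 ± 7.40 and 82.1 ± 18.1 (adjusted p = 0.0684) and Nlgn2 of inhibitory synapses at 41.0 ± 3.66 and 59.0 ± 6.25 (adjusted p = 0.134). Axon guidance ligands and receptors had 7 of 61 higher and 2 lower (median 0.12), and Plxna2, a semaphorin receptor, was at 28.6 ± 2.94 and 56.8 ± 20.6 (adjusted p = 0.121).

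Ionotropic receptors had 4 of 35 lower and 0 higher at an unadjusted p under 0.05 (median -0.14). Among them Glra1, a glycine receptor subunit, was at 18.5 ± 4.68 in control and 5.22 ± 5.37 in knockdown libraries (adjusted p = 0.149). Gad2, an enzyme of GABA synthesis that is in the interneuron list, was at 21.9, 20.1, 17.4 and 13.8 in control and at 6.13, 7.83, 7.42, 6.17, 7.70 and 6.75 in knockdown libraries, without overlap (log2 change -1.26, adjusted p = 0.0282, up to 0.106 without control library 1, 2 or 3 or knockdown library 4, 0.50 with all 20 libraries). Gad1 was at 40.7 to 60.9 in control and 21.9 to 34.9 in knockdown libraries (adjusted p = 0.0969). Of the 11 interneuron markers tested, 3 were lower at an unadjusted p under 0.05, Gad1, Gad2 and Slc17a6 of excitatory neurons, and 1 higher, Pax2 (log2 change 0.47), while the vesicular transporter of inhibitory neurons Slc32a1 had a log2 change of -0.12. Voltage-gated sodium and calcium channels had 3 of 23 higher and 1 lower, potassium and HCN channels 0 of 48 and 1, and the ion pumps 0 of 14 and 0.

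Neurotrophic and growth factor receptors had 2 of 21 higher and 1 lower (median 0.29), with Igf1r rising from 11.8 ± 2.01 to 28.5 ± 4.06 (log2 change 1.20, adjusted p = 0.0137, call held in each fit without 1 library, 0.128 with all 20 libraries). Insulin, PI3-kinase and mTOR signalling had 2 of 25 higher and 1 lower, and its list level was 3.86 to 3.96 in control and 3.97 to 4.19 in knockdown libraries. The unfolded protein and integrated stress response list had 0 of 17 called in either direction at an unadjusted p under 0.05 in limma, and so had the interferon response list with 0 of 13. The level of the interferon list, however, was 2.66 and 2.74 in knockdown libraries 3 and 4, which also deviated together across all genes, against 1.25 to 1.46 in control and 0.48 to 1.05 in the other 4 knockdown libraries. Its median log2 change was -0.01 with all libraries, -0.33 without knockdown libraries 3 and 4 and 0.34 without 5 and 6. Of 13 p53 targets 2 were higher and 1 lower, with Bbc3, which promotes apoptosis, at 5.85 ± 2.69 and 15.4 ± 3.94 (adjusted p = 0.0743). Cell division genes had 3 of 32 lower and 0 higher, and 1 lower after the length correction. Their median was -0.49 with all libraries, -0.23 without knockdown libraries 5 and 6 and -0.76 without 3 and 4, and their level was 2.62 to 3.32 in control and 1.56 to 2.92 in knockdown libraries. The share of lower members was near the 8.01% of all genes.

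Genes known as Tdp-43 targets were listed too. Of 10 tested genes described as lowered when Tdp-43 is lost from mouse brain, 1 was lower and 0 higher at an unadjusted p under 0.05, Fgf14 at 5.86 ± 1.75 and 2.51 ± 1.97 (adjusted p = 0.337), and the median was -0.08. Without knockdown libraries 5 and 6 the count turned to 0 lower and 2 higher. Nrxn3, a synaptic adhesion molecule of that list, was at 65.7 ± 9.63 and 77.3 ± 18.6 (adjusted p = 0.694). Of 10 genes whose splicing depends on Tdp-43 in mouse, 2 were higher, Poldip3 and Sort1 (28.1 ± 9.27 and 44.7 ± 8.12, adjusted p = 0.195), and 1 lower, Ube3c (10.9 ± 1.09 and 6.17 ± 3.08, adjusted p = 0.302). Without knockdown libraries 5 and 6 these counts were 2 higher and 4 lower. Splice forms were not analysed here.

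The counts of several other lists moved by over 1.5 times without knockdown libraries 5 and 6, when 866 of all protein-coding genes were higher and 1015 lower at an unadjusted p under 0.05. Higher members went from 4 to 7 of 29 histone lysine methyltransferases, from 0 to 5 of 21 histone acetyltransferases and deacetylases, from 7 to 11 of 56 neural cell adhesion molecules, from 2 to 7 of 47 cadherins and protocadherins and from 0 to 4 of 48 potassium and HCN channels. They went from 2 to 4 of 21 neurotrophic and growth factor receptors, of 31 kinesins and of 38 neuronal RNA-binding proteins. Lower members went from 3 to 7 of 43 Mediator and RNA polymerase II subunits and from 3 to 6 of 25 dynein and dynactin proteins.

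The changes went along with the length of the transcript. Genes were grouped by exonic length, the summed length of all exons of a gene in GENCODE M21. The 375 tested genes under 1000 bases had a median log2 change of -0.53, with 1.87% higher and 23.5% lower at an unadjusted p under 0.05. The median went to -0.30 at 1000 to 2000 bases, -0.17 at 2000 to 4000, -0.10 at 4000 to 6000 and -0.04 at 6000 to 10000. The 1321 genes of 10000 bases or more had a median of 0.07, with 8.71% higher and 3.79% lower. Between the shortest and the longest genes the median therefore differed in sign. The order was the same for genes of 10 FPKM or more on average (from -0.50 to 0.16), without knockdown libraries 5 and 6 (from -0.45 to 0.14) and with FPKM as deposited (from -0.34 to 0.26). Over the genomic span of the gene, introns included, the medians ran from -0.28 under 5000 bases to -0.01 at 300000 bases or more.

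**Figure D5:**
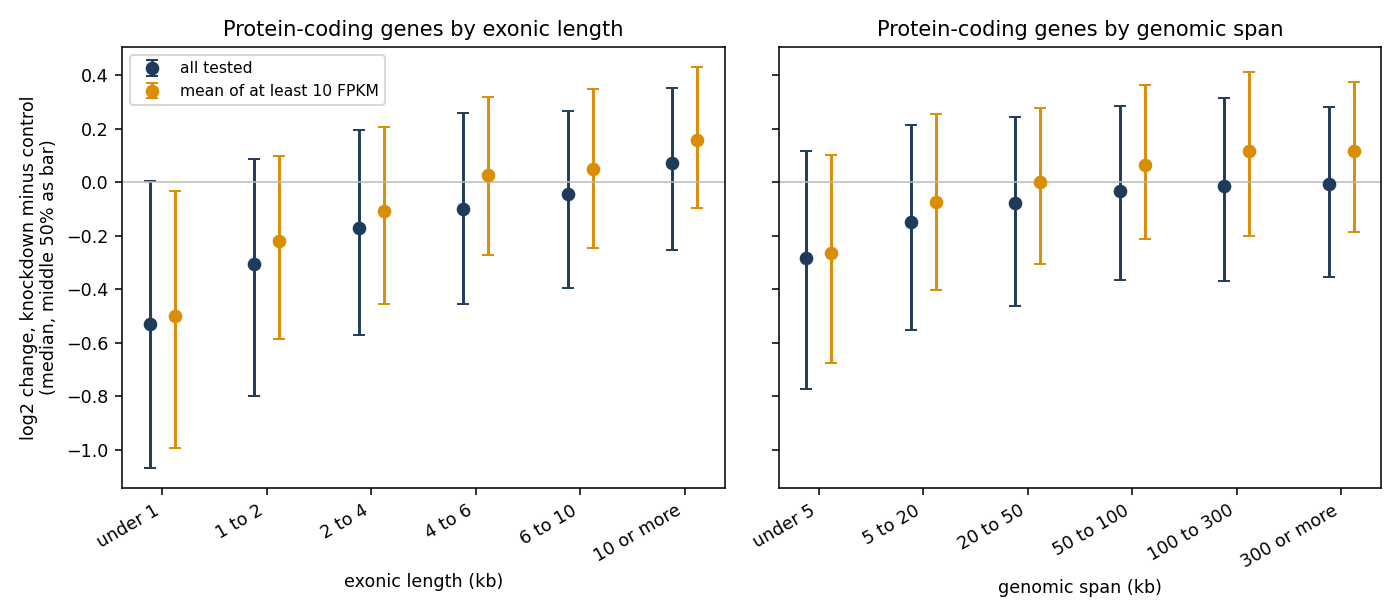
Points are medians and bars the middle 50% of the log2 changes, knockdown minus control, of protein-coding genes grouped by exonic length (left) and by genomic span (right), for all genes tested and for those with a mean of at least 10 FPKM. The median goes from -0.53 in the shortest to 0.07 in the longest exonic group.

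Several of the lowest lists hold short genes. The median exonic length was 1776 bases for cytosolic ribosomal proteins and 1569 for complex I, against 8304 for histone lysine demethylases and 9542 for postsynaptic proteins, and 4655 for all protein-coding genes tested. The pattern had exceptions, since Hox genes, the highest list, were short with a median of 2566 bases, and the citric acid cycle list, among the lowest, had a median of 4145 bases. Within genes of 2000 to 4000 bases, 29.0% of 69 ribosomal and respiratory genes were lower at an unadjusted p under 0.05, against 8.10% of 3283 other genes, and the medians were -0.43 and -0.16. Within 1000 to 2000 bases these shares were 34.4% of 90 and 11.7% of 1015. Under 1000 bases they were 37.0% of 46 and 21.6% of 329, but the medians were alike at -0.54 and -0.53. After a lowess correction of every library's values over exonic length, 20 of 80 ribosomal proteins and 5 of 37 complex I members were lower, with medians 0.42 and 0.29 below that of all genes, while those of complex IV, mitochondrially encoded proteins and the V-ATPase were 0.04, 0.11 and 0.15 above it. With this correction 792 of all protein-coding genes were higher and 630 lower at an unadjusted p under 0.05. The lower members went from 5 to 2 of 9 in complex III, from 5 to 3 of 12 in complex IV, from 6 to 1 of 13 mitochondrially encoded proteins, from 7 to 4 of 24 in the citric acid cycle list and from 5 to 3 of 31 proteins of mitochondrial import, of which 4 were then higher. They went from 5 to 1 of 12 tubulins, from 4 to 1 of 18 glycolytic proteins, from 9 to 5 of 31 redox proteins, from 8 to 5 of 36 proteasome subunits, from 4 to 2 of 19 V-ATPase subunits, from 4 to 2 of 53 initiation factors and from 5 to 3 of 52 presynaptic proteins. Whether the length relation comes from the RNA, its amplification or the way FPKM are computed for short transcripts was not tested.

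UG-rich stretches were searched because Tdp-43 binds them. In the longest coding transcript of each of 11698 genes, on the sense strand, a run of at least 3 TG units (TGTGTG) was looked for without regard to other motifs. It was present in 75.8% of all tested genes, in 81.3% of the 584 genes higher and in 67.1% of the 910 genes lower at an unadjusted p under 0.05. Longer transcripts held such a run more often, in 45.4% of genes under 2000 bases and in 91.4% of those from 4000 to 6000 bases. Among transcripts of 2000 to 4000 bases the shares of all, higher and lower genes were 76.3%, 77.2% and 78.0%, and among those of 4000 to 6000 bases 91.4%, 88.4% and 95.3%. A run of these letters is a description and not a binding site, and introns, which hold most Tdp-43 binding in the nucleus, were not searched.

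Axonal libraries of the same study were set beside these results. Each axonal library was matched to the somatodendritic one with its condition and number, which is an assumption, and both contrasts use libraries labelled with the same numbers. In axonal libraries, 8 of 12077 protein-coding genes were called at an adjusted p under 0.05 in limma, 1 higher and 7 lower, so that few axonal changes reached that threshold. Of the 15 somatodendritic rises, 12 had a positive axonal log2 change and 3 an axonal unadjusted p under 0.05, and of the 14 falls that were tested in axons 13 had a negative one and 6 such a p. Among all axonal protein-coding genes, 41.3% were positive and 58.7% negative, and 2.07% were higher and 5.24% lower at an unadjusted p under 0.05. A test of the difference between compartments covered 11283 protein-coding genes. None passed an adjusted p under 0.05 in limma, and 509 (4.51%) had an unadjusted p under 0.05, while an unpaired interaction term gave 1 adjusted call.

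The values of single genes are set side by side here. Hoxb9 had a log2 change of 1.13 in the somatodendritic and 1.06 in the axonal libraries (p of the difference 0.916). Hipk1 was at 1.24 and 0.02 (p of the difference 0.0226, unadjusted), and Mga at 1.29 and -0.03 (0.0281). Rps3a1 was at -1.61 and -1.09 (0.409), whereas Idi1 was at -2.09 and -0.62 (0.0298) and Tmem170b at -2.25 and -0.21 (0.0033). Rpp14 was at -2.69 and 0.87 (0.0014). Lars2, whose value is uncertain as said above, was at -0.56 and -2.79 (0.000296), the larger fall being in axonal libraries. These genes were chosen by their somatodendritic values, which the difference also uses. Its unadjusted p therefore tends to be too small for them. None of these differences passed the adjusted threshold. For Tardbp itself the axonal log2 change was -1.71 and the p of the difference 0.190.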

How the data were processed

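The authors sequenced total RNA from both compartments and deposited 1 gene-level table per library, with FPKM values and their 95% intervals. The deposited FPKM were computed with Cufflinks 2.2.1 on GRCm38, per the submitters' processing notes, which also name FastQC 0.10.1. FPKM were divided here by 1 factor per library, its median ratio to the geometric mean of the libraries across the 7619 genes that reached 1 FPKM in all 10 libraries, and tested as log2(scaled FPKM + 1) with limma 3.58.1 (lmFit, eBayes with trend) in R 4.3.3. Benjamini-Hochberg adjustment ran over 13762 genes of all types with a mean of at least 1 FPKM, of 39174 in the files. Groups came from the compartment and genotype labels. Depth was not given and was estimated from the intervals. The genes named first were the 15 largest rises and falls at an adjusted p under 0.05 whose groups did not overlap and that the study's text does not name. They also needed a mean of 5 FPKM in the higher group. In each list up to 4 members with the smallest unadjusted p were named. The genes, lists and alternatives were chosen with earlier results of these data known. Exonic lengths came from GENCODE M21 for 98.6% of tested genes. Tables were made with Python 3.11.15, pandas 2.3.3 and scipy 1.17.1. On simulated data for 13762 genes, 12.0% of 108 genes changed 2-fold and 46.7% of 92 changed 4-fold were recovered at an adjusted p under 0.05, and 69.4% and 93.5% at an unadjusted one. Alternatives were other scalings, filters and pseudocounts, array weights, a length correction, a replicate block and leaving out libraries. Results for 1 gene and 1 list are not reported here.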

Additional observations from a re-analysis of the deposited data

Results flagged for a closer look

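In 62 groups of libraries of the named genes, single libraries far from the rest of their group were looked for with Dixon's test, which marks about 1 group in 20 by chance. Poldip3 was at 92.8 scaled FPKM in knockdown library 6, above the other 5. Hist1h2bh at 2.78 and Wbscr27 at 1.05 in knockdown library 4, Rpp14 at 2.0 and Gm9790 at 2.54 in knockdown library 3, and Rpl13-ps3 at 0.932 in knockdown library 2 stood above knockdown libraries that were mostly listed at 0. Rpl13 was listed at 0 in knockdown library 6 alone.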

How the results depend on the processing

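Counts of changed genes depended on the processing, and no called change of a named gene turned direction under any alternative run. With the 29 rises and 54 falls at an adjusted p under 0.05 as reference, FPKM as deposited gave 147 and 34, limma array weights 124 and 198, and a fit over all 20 libraries 2 and 15. A mean of at least 10 FPKM, which left 5381 protein-coding genes to test against 11972, gave 64 and 87. A lowess correction over exonic length gave 20 falls and a pseudocount of 5 gave 98. Added after the data were seen, libraries above a relative depth of 0.5 alone gave 44 rises and 84 falls (90 falls with ratios over protein-coding genes), and knockdown libraries 1, 2, 5 and 6 alone gave 15 rises. Leaving out 1 library gave 11 to 46 rises and 18 to 81 falls, and 494 to 797 and 727 to 999 at an unadjusted p under 0.05. Without a control library, 29 to 37 of the protein-coding genes were called in all, against 83. At an unadjusted p, against 595 and 959, FPKM as deposited gave 1213 and 501 and all 20 libraries 179 and 552, while the length correction gave 630 falls. The mean of at least 10 FPKM gave 508 rises and 488 falls, out of its smaller set of 5381 genes. The Tardbp log2 change was -3.06 without a filter (adjusted p = 0.0559 in limma), -3.92 with a pseudocount of 0.1 (0.129), -3.27 with knockdown libraries 1, 2, 5 and 6 (0.0620) and -3.29 to -2.68 without 1 library. The compartment difference gave 0 adjusted calls and 1 with an unpaired interaction term. The causes of these shifts were not tested.

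The deviations of same-numbered control and knockdown libraries correlated at only -0.02 to 0.06. Most genes rest on few implied fragments, so that this low correlation cannot show whether the numbers pair the libraries. The study states that control and knockdown cells were handled in parallel. With the replicate block, over 8 libraries, 3 rises and 7 falls were called, all 10 among the 83, and the Tardbp log2 change was -2.91 (adjusted p = 0.0954 in limma). The same 8 libraries without the block gave 39 rises and 94 falls. Depth limits the values of low genes most in knockdown libraries 5 and 6, where an FPKM of 0 does not show that a transcript was absent.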
